A study of Mus musculus with 12 samples.

Results

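Pre-mRNA splicing in NIH3T3 mouse fibroblasts was followed through the genes of its trans-acting factors, as read in RNA-seq gene counts. The group was defined by name alone: protein-coding genes called Srsf with a number, Clk1 to Clk4, every Hnrnp gene, Cirbp and Rbm3. This gave 37 genes of the 54446 in the table, namely 11 Srsf, 4 Clk and 20 Hnrnp genes and the 2 cold-inducible genes. All but Srsf12 passed edgeR's filter on low counts, so 36 of 37 were tested among 14724 genes. Srsf12 had at most 3 counts in any sample.

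SR proteins are RNA-binding proteins with a tail rich in serine and arginine that bind exonic enhancers and help the spliceosome choose splice sites. The CLK kinases phosphorylate that tail, which moves SR proteins out of nuclear speckles, while many hnRNPs bind silencers and oppose exon inclusion. Cirbp and Rbm3 are small glycine-rich RNA-binding proteins known for their rise in mild cold. Many genes of these families can be spliced to include an exon or keep an intron that exposes the mRNA to nonsense-mediated decay, a feedback that gene counts do not resolve, since every isoform of a gene is counted together.

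The 4 groups were wild-type cells and ΔN-VEGF cells (dNVEGF in the labels), each in normoxia and in hypoxia, with 3 samples per group. Hypoxia meant 16 h in a chamber below 0.2% oxygen. ΔN-VEGF cells were made with Cas9, a pair of guides and donor cassettes so that both Vegfa alleles lost the coding sequence of N-VEGF, the amino-terminal part of the long VEGF form. The cassettes were then removed with VCre in a pair of clones and non-fluorescent cells were sorted, so a difference between the lines cannot be told apart from a difference between clones. Gene counts of Vegfa do not show the deleted stretch and so do not check the genotype. The labels do not say whether the samples of a group came from separate cultures, so p-values measure the spread between these samples. In bulk RNA, fewer cells of a state and less RNA per cell cannot be told apart.

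Counts on genes numbered 30519052 to 43056690 per sample. Mitochondrial genes took 2.62 to 3.54% of the counts of normoxic and 1.62 to 2.08% of those of hypoxic wild-type samples. For ΔN-VEGF samples the shares were 3.14 to 3.55% and 1.53 to 1.63%, lower in hypoxia in both lines, and their part in the results was not tested. Fibroblast markers summed to between 16800 and 42600 CPM (counts scaled to a common library size, with totals adjusted by the trimmed mean of M-values, TMM), while the summed markers of epithelium, leukocytes and skeletal muscle stayed at or under 6.8 CPM. Endothelial markers summed to 1.81 to 4.23 CPM in normoxia, 5.91 to 8.05 CPM in wild-type hypoxia and 20.3 to 25.1 CPM in ΔN-VEGF hypoxia, and their part in the results was not tested. Most of that sum was Cdh5 (19.4 to 24.4 CPM in ΔN-VEGF hypoxia), while Pecam1 and Tek stayed at or under 0.611 and 0.376 CPM in all samples. All 10 of 10 genes on a list of hypoxia targets rose in both lines, with a median log2 fold change of 3.34 in the wild type and 3.7 in the ΔN-VEGF line.

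One library stood apart before any comparison was made. Log2 CPM of wild-type normoxia replicate 2 correlated at 0.956 and 0.957 with replicates 1 and 3, which correlated at 0.996 with each other. ΔN-VEGF normoxia replicate 2 was apart in a lesser degree, at 0.986 with both other replicates of its group, and all other pairs of replicates lay at 0.994 or above. The members were over-represented in the wild-type departure: replicate 2 was the highest of all 12 samples for 25 of 36 members (69.4%) and for 23.2% of all tested genes. Vegfa read 39.4 CPM in this library, 86.2 and 82.6 CPM in the other wild-type normoxia samples and 34.2 to 37.3 CPM in ΔN-VEGF normoxia. Since gene counts do not show the deleted stretch, whether the library is what its label says was not settled here, and every wild-type normoxia value rests on that label. Each comparison below is therefore given with and without this library.

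The departure split the families. Relative to the mean of replicates 1 and 3, wild-type normoxia replicate 2 held 3.18 times as much Srsf1, 3.03 times as much Hnrnpab, 2.75 times as much Srsf7 and 2.67 times as much Srsf3. In ΔN-VEGF normoxia replicate 2 the ratios of the same genes were 1.39, 1.46, 1.57 and 1.44, while Clk1 stood at 0.831 and Hnrnph3 at 0.689. In the wild-type library the median ratio was 2.13 over the 10 tested SR genes and 1.75 over the 20 Hnrnp genes, against 1.01 over all tested genes. Rbm3 stood at 2.08, whereas Cirbp stood at 0.469 and the 4 CLK kinases at 0.713 to 0.976. A ratio above 1.5 was found for 24 of 36 members (66.7%) and for 24.1% of all tested genes. Summed CPM of 10 proliferation genes, a list drawn up after the data were seen, moved with it: 888, 3380 and 880 in wild-type normoxia, 815, 802 and 824 in wild-type hypoxia, 2030, 2740 and 2090 in ΔN-VEGF normoxia and 486, 510 and 500 in ΔN-VEGF hypoxia. The part of proliferation in any result on splicing genes was not tested.

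**Figure D1:**
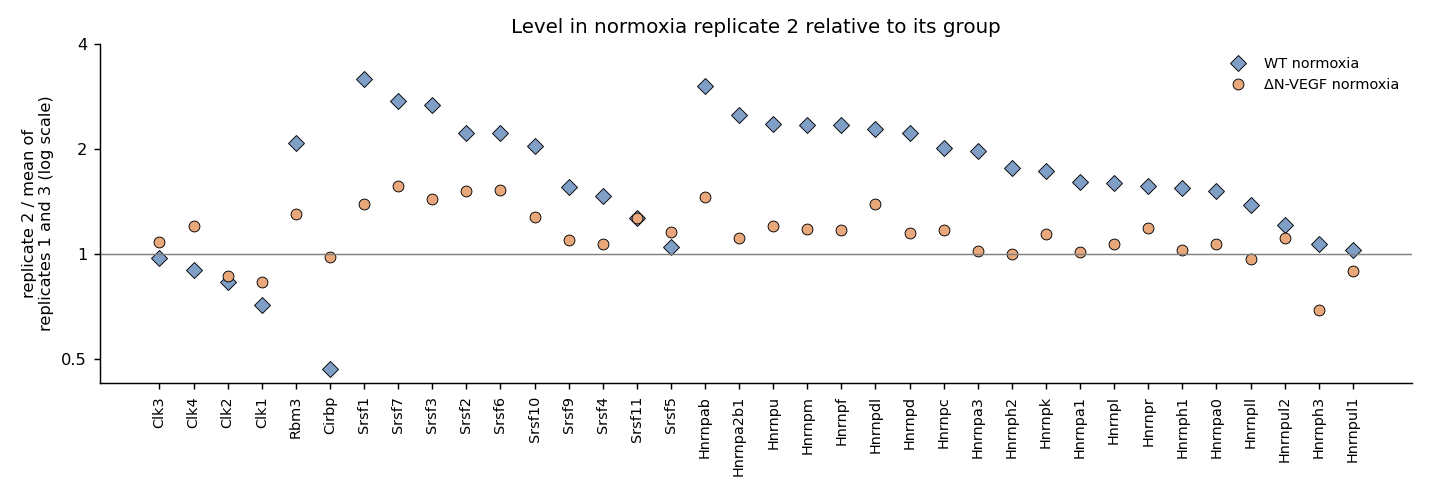
Level of each tested splicing gene in normoxia replicate 2 divided by the mean of replicates 1 and 3 of the same group (log axis), for wild-type cells (diamonds) and ΔN-VEGF cells (circles), grouped by family. In wild-type cells the SR genes reached 3.18 and the Hnrnp genes 3.03, while the CLK kinases lay below 1 and Cirbp at 0.469. In ΔN-VEGF cells the SR genes reached 1.57 and the Hnrnp genes 1.46.

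Of the 4 CLK kinases, Clk1, Clk3 and Clk4 rose with hypoxia in both lines, and none fell, where 18.2% (wild type) and 26.9% (ΔN-VEGF) of all tested genes rose. Per kilobase of exon, Clk2 was the most abundant in wild-type normoxia, at 7.86 ± 0.839 RPKM (SD, n = 3), followed by Clk3 at 5.39 ± 0.305, Clk1 at 4.01 ± 0.741 and Clk4 at 2.17 ± 0.189 RPKM. In ΔN-VEGF hypoxia Clk2 stood at 9.57 ± 0.346, Clk3 at 8.7 ± 0.456, Clk1 at 4.44 ± 0.421 and Clk4 at 3.35 ± 0.304 RPKM.

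Clk3 (ENSMUSG00000032316, chr9:57750624-57765860 on the minus strand, GRCm38) gave the steadiest rise. In wild-type cells it read 48.4, 44.8 and 43.4 CPM in normoxia and 63.5, 67.3 and 65.3 CPM in hypoxia. In ΔN-VEGF cells it read 36.5, 37.9 and 33.4 CPM in normoxia and 73.7, 77.3 and 69.6 CPM in hypoxia. In each line every hypoxic sample lay above every normoxic sample, and all ΔN-VEGF samples lay below the wild-type ones in normoxia and above them in hypoxia. The hypoxic difference between the lines was not called (0.17 ± 0.09, adjusted p = 0.19) and was -0.05 with library totals alone (adjusted p = 0.74). In hypoxia 59.8% of all tested genes did not overlap between the lines. The log2 fold change was 0.52 ± 0.09 (SE) in wild-type cells, a 1.44-fold rise (adjusted p = 7e-04), and 1.03 ± 0.09 in ΔN-VEGF cells, a 2.05-fold rise (adjusted p = 2.9e-06). Both rises were called in each of the 12 fits that left out 1 sample, and with library totals alone they were 0.29 (adjusted p = 0.025) and 0.63 (adjusted p = 0.00015).

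Clk3 was also the only member called in the interaction, the difference between the responses of the lines, at 0.51 ± 0.12 (adjusted p = 0.045), and the only one called between the lines in normoxia, at -0.34 ± 0.09 (adjusted p = 0.048). Called interactions made up 2.21% of all tested genes in the positive and 1.15% in the negative direction, and the normoxic line comparison called 1.39% higher and 2.97% lower. Both Clk3 calls lay close to the threshold. The interaction was lost in 10 of the 12 fits without 1 sample, with log2 differences of 0.45 to 0.54 and adjusted p-values up to 0.14. The normoxic difference was lost in 11 of 12, with adjusted p-values up to 0.21. Both were also lost without a filter on low counts (0.43, adjusted p = 0.3, and -0.26, adjusted p = 0.44). Dropping wild-type normoxia replicate 2 gave 0.51 (adjusted p = 0.0023) and -0.34 (adjusted p = 0.0041), and library totals alone gave an interaction of 0.34 (adjusted p = 0.14), with Hnrnph1 (-0.67, adjusted p = 0.047) called in its place. The 3′ end of Clk3 shares 1284 exonic bases with Edc3 on the opposite strand, 15.2% of its exon length, and Edc3, an mRNA decapping factor, stood at 0.1 ± 0.09 in wild-type hypoxia (adjusted p = 0.38). In ΔN-VEGF hypoxia Edc3 rose, by 0.4 ± 0.09 (adjusted p = 0.0026), with 58.3% as many counts as Clk3 over all samples. The part of these reads in the Clk3 values was not tested. Whether reads were counted by strand is not given in the sources used here.

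Clk4 (ENSMUSG00000020385, chr11:51261730-51281766, plus strand) had the lowest level of the family and rose in both lines. Its CPM in wild-type cells were 12.2, 11.7 and 13.8 in normoxia and 22.6, 18.4 and 21.5 in hypoxia. Its CPM in ΔN-VEGF cells were 9.58, 11.6 and 9.85 in normoxia and 20.4, 17.4 and 20.5 in hypoxia. The groups did not overlap in either line. The log2 fold changes were 0.73 ± 0.13 (adjusted p = 0.001) and 0.91 ± 0.13 (adjusted p = 0.00014), and their difference of 0.18 ± 0.18 did not pass the test (adjusted p = 0.61). Dropping wild-type normoxia replicate 2 gave 0.69 and 0.9.

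Clk1 (ENSMUSG00000026034, chr1:58410189-58424066, minus strand), the kinase best known for phosphorylating SR proteins in speckles, rose as well but ended lower in ΔN-VEGF cells. Wild-type samples read 35.6, 25.7 and 36.6 CPM in normoxia and 55.1, 46.4 and 51.1 CPM in hypoxia. ΔN-VEGF samples read 29.9, 24.1 and 28.2 CPM in normoxia and 36.6, 32.5 and 39.3 CPM in hypoxia. Hypoxia and normoxia did not overlap in either line, and in hypoxia all 3 ΔN-VEGF samples lay below all 3 wild-type samples. The rise was 0.64 ± 0.15 in wild-type (adjusted p = 0.0056) and 0.4 ± 0.15 in ΔN-VEGF cells (adjusted p = 0.039), and the hypoxic difference between the lines was -0.49 ± 0.15 (adjusted p = 0.036). Both rises depended on scaling: with library totals alone they were 0.4 (adjusted p = 0.1) and -0.01 (adjusted p = 0.98), where the medians of all genes were -0.3 and -0.41. Dropping wild-type normoxia replicate 2 gave 0.5 and 0.39. The ΔN-VEGF rise was also lost in 6 of the 12 fits without 1 sample, as was the hypoxic difference between the lines.

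Clk2 (ENSMUSG00000068917, chr3:89164795-89176921, plus strand) did not pass the test in either line. It read 44.9, 36.6 and 43.5 CPM in wild-type normoxia and 40.1, 42.4 and 42.3 CPM in wild-type hypoxia. It read 46, 39.4 and 44.8 CPM in ΔN-VEGF normoxia and 52.3, 51.1 and 48.7 CPM in ΔN-VEGF hypoxia. The wild-type groups overlapped and the ΔN-VEGF groups did not. The log2 fold changes were 0 ± 0.1 (adjusted p = 0.99) and 0.22 ± 0.1 (adjusted p = 0.079). When wild-type normoxia replicate 2 was left out, the ΔN-VEGF value of 0.22 passed (adjusted p = 0.016) and the wild-type value of -0.08 did not (adjusted p = 0.41). The ΔN-VEGF value was -0.18 with library totals alone (adjusted p = 0.27).

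**Figure D2:**
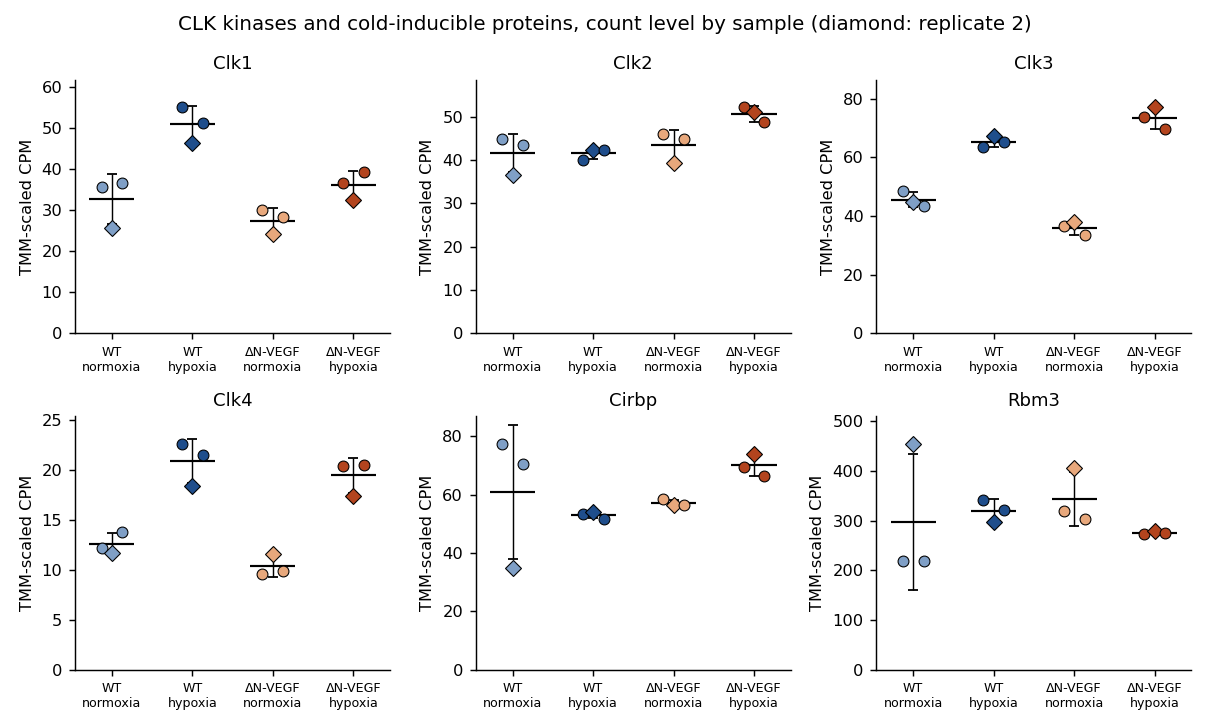
TMM-scaled CPM of the 4 CLK kinases and the 2 cold-inducible genes in each of the 12 samples (points, with replicate 2 as a diamond), with group means (horizontal bars) and SD (error bars). Clk1, Clk3 and Clk4 lay higher in every hypoxic sample than in any normoxic sample of the same line, and Cirbp in wild-type normoxia spread from 34.7 to 77.5 CPM.

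Promoter windows of 300 bases (RefSeq, GRCm38.p6, from 250 bases before to 50 after an annotated start) were found for 33 of 37 members, with 46 starts in all. They were searched on both strands for ACGTG and GCGTG, the core of the hypoxia response element bound by HIF, and for TCCCCGCC, an element described for the cold response of Cirbp. The windows of Clk3 and Clk4 are shown because these genes rose in both lines and have an entry, which Clk1 lacks, with every match in capitals, including matches to the reverse complement. They lie at chr9:57765065-57765364 on the minus strand and chr11:51262864-51263163 on the plus strand.
Clk3: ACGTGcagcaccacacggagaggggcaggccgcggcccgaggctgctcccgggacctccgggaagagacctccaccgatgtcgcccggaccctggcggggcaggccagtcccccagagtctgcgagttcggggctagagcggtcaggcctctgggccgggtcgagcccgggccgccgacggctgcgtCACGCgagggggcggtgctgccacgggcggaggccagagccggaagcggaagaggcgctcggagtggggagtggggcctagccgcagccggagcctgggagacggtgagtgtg
Clk4: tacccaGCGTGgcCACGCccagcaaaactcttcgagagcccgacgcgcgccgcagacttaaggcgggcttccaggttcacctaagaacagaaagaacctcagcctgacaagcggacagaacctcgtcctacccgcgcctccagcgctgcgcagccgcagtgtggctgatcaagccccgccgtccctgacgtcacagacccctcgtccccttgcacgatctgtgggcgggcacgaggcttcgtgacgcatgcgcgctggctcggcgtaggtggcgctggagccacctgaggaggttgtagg
Clk3 held 1 match to ACGTG and 1 to GCGTG, and Clk4 held 2 to GCGTG. Such matches are common: ACGTG or GCGTG stood in 43.8% of all 32851 promoter windows and in 31 of 46 member windows (67.4%). Clk2, which did not pass the test, held 3 matches to each. A match describes the letters in the window and is not a measured binding site.

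Cirbp and Rbm3, the pair named for their response to cold, gave no call with all samples and TMM scaling. Cirbp (ENSMUSG00000045193, chr10:80165985-80172786, plus strand) read 77.5, 34.7 and 70.4 CPM in wild-type normoxia and 53.2, 54.1 and 51.8 CPM in wild-type hypoxia. ΔN-VEGF samples read 58.5, 56.4 and 56.6 CPM in normoxia and 69.5, 74 and 66.5 CPM in hypoxia. The wild-type groups overlapped only through normoxia replicate 2, the lowest of all 12 samples, while in ΔN-VEGF cells every hypoxic sample lay above every normoxic one. The log2 fold changes were -0.2 ± 0.22 (adjusted p = 0.52) and 0.29 ± 0.22 (adjusted p = 0.29), with an interaction of 0.49 ± 0.32 (adjusted p = 0.41). Without wild-type normoxia replicate 2, Cirbp fell in wild-type hypoxia (-0.47, adjusted p = 0.00012) and rose in ΔN-VEGF hypoxia (0.28, adjusted p = 0.0018), with an interaction of 0.76 ± 0.1 (adjusted p = 6.3e-05). The call on Cirbp thus rested on whether a single library was kept. Scaling by library totals alone, with all 12 samples, gave -0.11 in ΔN-VEGF cells (adjusted p = 0.74).

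Rbm3 (ENSMUSG00000031167, chrX:8138975-8145880, minus strand) was highest where Cirbp was lowest, in wild-type normoxia replicate 2. It read 218, 455 and 219 CPM in wild-type normoxia and 342, 297 and 321 CPM in wild-type hypoxia. It read 319, 405 and 304 CPM in ΔN-VEGF normoxia and 273, 279 and 275 CPM in ΔN-VEGF hypoxia. Replicate 2 was the highest of its group in both normoxia groups, and only in ΔN-VEGF cells did the conditions not overlap. The log2 fold changes were 0.11 ± 0.24 (adjusted p = 0.76) and -0.31 ± 0.24 (adjusted p = 0.3), neither called. Scaling by library totals alone gave -0.08 (adjusted p = 0.76) and a called fall of -0.71 (adjusted p = 0.0082). Without wild-type normoxia replicate 2, Rbm3 rose in wild-type hypoxia (0.56, adjusted p = 0.00082) and fell in ΔN-VEGF hypoxia (-0.32, adjusted p = 0.0097), with an interaction of -0.88 ± 0.14 (adjusted p = 0.00039). Rbm3 was the more abundant of the pair, at 68.1 ± 4.79 RPKM in wild-type hypoxia against 20.4 ± 0.445 RPKM for Cirbp. Its antisense neighbour Rbm3os and the pseudogene Rbm3-ps held at most 13 and 7 counts in a sample.

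The Cirbp window is shown because it holds TCCCCGCC, which stood in 5.38% of all windows and in 4 of 46 member windows (8.7%). It lies at chr10:80167589-80167888 on the plus strand, with the match in capitals beside 2 matches to GCGTG. A second annotated start held 2 matches to GCGTG and none to TCCCCGCC.
Cirbp: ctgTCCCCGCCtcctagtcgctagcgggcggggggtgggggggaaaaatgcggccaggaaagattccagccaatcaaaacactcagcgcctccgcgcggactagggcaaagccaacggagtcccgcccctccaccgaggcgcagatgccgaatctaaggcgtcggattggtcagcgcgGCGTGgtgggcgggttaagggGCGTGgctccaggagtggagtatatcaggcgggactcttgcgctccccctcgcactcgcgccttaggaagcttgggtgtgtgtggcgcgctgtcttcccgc

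In wild-type cells, hypoxia called 5 of 36 members: 4 rose and 1 fell, where 18.2% of all tested genes rose and 18.3% fell. None of the 10 tested SR genes was called, with 7 of 10 log2 fold changes below 0 and a median of -0.2, against -0.07 over all genes. Of the 20 Hnrnp genes, 1 rose and 1 fell. The share of members called was thus below the background in both directions. With library totals alone the balance turned, to 2 members higher (5.56%) and 11 lower (30.6%), where 12.8% of all tested genes were higher and 32.7% lower. The 11 then included Srsf1 (-0.98, adjusted p = 0.03), Hnrnpab (-1.15, adjusted p = 0.011), Hnrnpa2b1 (-0.8, adjusted p = 0.021) and Hnrnpd (-0.77, adjusted p = 0.013). The conditions did not overlap for 10 of 36 members, where 45% of all tested genes did not overlap.

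Hnrnpul2 and Hnrnpul1, a pair of related nuclear proteins with roles in the response to DNA damage, went in opposite directions. Hnrnpul2 read 193, 230 and 188 CPM in wild-type normoxia and 248, 240 and 265 CPM in hypoxia, a rise of 0.3 ± 0.1 (adjusted p = 0.031). In ΔN-VEGF cells it read 192, 214 and 194 CPM in normoxia and 296, 311 and 312 CPM in hypoxia, a rise of 0.61 ± 0.1 (adjusted p = 0.00031). The conditions did not overlap in either line, and the wild-type rise was lost in 8 of the 12 fits without 1 sample. With library totals alone the values were 0.08 (adjusted p = 0.38) and 0.21 (adjusted p = 0.024), and dropping wild-type normoxia replicate 2 gave 0.4 and 0.61. Hnrnpul1 read 328, 328 and 313 CPM in wild-type normoxia and 255, 246 and 267 CPM in hypoxia, a fall of -0.33 ± 0.08 (adjusted p = 0.0071) called in all 12 fits without 1 sample and at -0.32 without replicate 2. In ΔN-VEGF cells it read 349, 304 and 329 CPM in normoxia and 313, 297 and 313 CPM in hypoxia, which overlapped (-0.09 ± 0.08, adjusted p = 0.37). Hypoxic ΔN-VEGF cells held more Hnrnpul1 than hypoxic wild-type cells, by 0.26 ± 0.08 (adjusted p = 0.04), a call lost in 9 of the 12 fits without 1 sample, while the interaction of 0.24 ± 0.11 did not pass (adjusted p = 0.24). With library totals alone the hypoxic line difference was 0.04 (adjusted p = 0.77), and Hnrnpul1 fell in both lines (-0.56, adjusted p = 0.00076, and -0.49, adjusted p = 0.00095).

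Without normoxia replicate 2, the wild-type comparison turned. Now 17 of 36 members were called, 15 higher and 2 lower, where 27.1% of 15145 tested genes were called higher and 26.9% lower. The 15 rises comprised 3 CLK kinases, 3 SR genes (Srsf3 by 0.71, Srsf10 by 0.52 and Srsf9 by 0.35), 8 Hnrnp genes and Rbm3, and the falls were Cirbp and Hnrnpul1. Hnrnpm rose by 0.59 (adjusted p = 9.6e-05) and Hnrnpa1, an abundant exon-silencing protein, by 0.57 (adjusted p = 9.3e-05). With all samples, the same 2 genes had changed by 0.04 (adjusted p = 0.92) and 0.3 (adjusted p = 0.19). Hnrnpf and Hnrnpu changed sign, from -0.13 to 0.41 and from -0.12 to 0.43, with adjusted p-values of 0.0025 for both without the library. The median over the members moved from -0.18 to 0.19 while the median over all genes moved from -0.07 to 0.

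In ΔN-VEGF cells, hypoxia called 13 of 36 members, of which 5 rose and 8 fell, where 26.9% of all tested genes rose and 26.4% fell. Library totals alone gave 3 higher and 26 lower, where 15.3% of all tested genes were higher and 44.5% lower, and with the 6 ΔN-VEGF samples alone 7 were higher and 21 lower, where calls over all genes went from 7853 to 9268. The 3 CLK kinases, Hnrnpa0 and Hnrnpul2 rose. Srsf1, Srsf7 and 6 Hnrnp genes fell, and the median log2 fold change was -0.38 over SR genes and -0.44 over Hnrnp genes, against -0.01 over all tested genes. The conditions did not overlap for 31 of 36 members, against 70.5% of all tested genes. Without wild-type normoxia replicate 2, which is in neither group of this comparison but shares its filter, scaling and estimate of spread, 31 members were called, 9 higher and 22 lower, where 32.8% of all genes were called higher and 34.3% lower. The log2 fold changes themselves hardly moved, at -1.65 for Hnrnpab, -1.4 for Hnrnpa2b1, -1.26 for Srsf1 and 1.03 for Clk3. With both normoxia samples numbered 2 left out, a setting added after the data were seen, the medians were -0.19 over SR genes and -0.37 over Hnrnp genes. The values were then -1.45 for Hnrnpab, -1.35 for Hnrnpa2b1, -1.08 for Srsf1 and 1.07 for Clk3, and -0.74 for Srsf7 (-0.99 with all samples).

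Srsf1 (ENSMUSG00000018379, chr11:88047373-88053755, plus strand), the founding member of the SR family and a binder of purine-rich enhancers, fell furthest among the SR genes. ΔN-VEGF samples read 239, 340 and 249 CPM in normoxia and 111, 119 and 118 CPM in hypoxia. Wild-type samples read 132, 436 and 143 CPM in normoxia and 142, 119 and 142 CPM in hypoxia. The ΔN-VEGF groups were far apart, while in wild-type cells replicates 1 and 3 in normoxia lay within or next to the hypoxic range. The fall in ΔN-VEGF cells was -1.25 ± 0.38, or 2.37-fold (adjusted p = 0.017), and was lost in 2 of the 12 fits without 1 sample. In wild-type cells the value was -0.81 ± 0.38 (adjusted p = 0.11), and -0.02 without normoxia replicate 2 (adjusted p = 0.91).

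Srsf7 (ENSMUSG00000024097, chr17:80200089-80207305, minus strand), an SR protein with a zinc knuckle that also serves in mRNA export, fell in ΔN-VEGF cells too. ΔN-VEGF samples read 79.7, 127 and 83.1 CPM in normoxia and 49.6, 48.2 and 48.8 CPM in hypoxia, without overlap. Wild-type samples read 52.8, 147 and 54.3 CPM in normoxia and 67.5, 67.7 and 65.3 CPM in hypoxia, so that replicates 1 and 3 lay below the hypoxic samples and replicate 2 above. The fall in ΔN-VEGF cells was -0.99 ± 0.34 (adjusted p = 0.031), lost in 4 of the 12 fits without 1 sample. In wild-type cells the value was -0.34 ± 0.34 (adjusted p = 0.46), and 0.33 without normoxia replicate 2 (adjusted p = 0.096). The remaining 8 tested SR genes were not called, with ΔN-VEGF log2 fold changes from -0.53 (Srsf2) to 0.19 (Srsf9). Srsf5, the most abundant SR gene per length at 65.3 ± 1.88 RPKM in wild-type normoxia, stood at 0.03 ± 0.1 (adjusted p = 0.84), and at -0.37 with library totals alone (adjusted p = 0.0067).

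Hnrnpab (ENSMUSG00000020358, chr11:51600100-51606847, minus strand), an hnRNP that binds both RNA and CArG-type DNA elements, showed the largest fall of all members. It read 311, 462 and 323 CPM in ΔN-VEGF normoxia and 115, 119 and 117 CPM in hypoxia. Wild-type samples read 177, 540 and 180 CPM in normoxia and 155, 142 and 156 CPM in hypoxia. The conditions did not overlap in either line. The fall was -1.65 ± 0.37, or 3.13-fold, in ΔN-VEGF cells (adjusted p = 0.0031). In wild-type cells it was -0.98 ± 0.36 and not called by edgeR (adjusted p = 0.054), while DESeq2 called it (-0.99, adjusted p = 0.029). The wild-type value was -0.23 without wild-type replicate 2 (adjusted p = 0.16). It was also -0.23, and called, without both normoxia samples numbered 2 (adjusted p = 0.00089). The exons of Hnrnpab share 809 bases with Phykpl on the opposite strand, which had 8.34% as many counts. Phykpl rose in hypoxia in both lines, by 1.27 ± 0.14 in wild-type (adjusted p = 4.1e-05) and 1.48 ± 0.14 in ΔN-VEGF cells (adjusted p = 7.3e-06).

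Hnrnpa2b1 (chr6:51460932-51469894, minus strand), which binds exons and sorted RNAs, read 779, 889 and 825 CPM in ΔN-VEGF normoxia and 305, 321 and 322 CPM in hypoxia, a fall of -1.39 ± 0.3 (adjusted p = 0.0023). It read 394, 1000 and 410 CPM in wild-type normoxia and 421, 336 and 413 CPM in hypoxia, which overlapped. Hnrnpd (chr5:99955935-99978938, minus strand), known as AUF and active in the decay of AU-rich mRNAs, read 234, 279 and 251 CPM in ΔN-VEGF normoxia and 119, 130 and 134 CPM in hypoxia, a fall of -1 ± 0.26 (adjusted p = 0.008). Its wild-type samples read 141, 335 and 162 CPM in normoxia and 144, 128 and 151 CPM in hypoxia, again overlapping. Without replicate 2 the wild-type values were -0.04 (adjusted p = 0.77) for Hnrnpa2b1 and -0.09 (adjusted p = 0.46) for Hnrnpd. Both ΔN-VEGF falls were called in all 12 fits without 1 sample.

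Hnrnph3 (-0.73), Hnrnpl (-0.65), a binder of CA repeats, and Hnrnpa3 (-0.58) also fell in ΔN-VEGF cells. The fall of Hnrnpa3 (adjusted p = 0.047) was called in 3 of the 12 fits without 1 sample and was lost with the replicate number as a block (adjusted p = 0.062). Hnrnph3 shares 115 exonic bases with Rufy2, which held 149% as many counts. Hnrnpa0, a binder of AU-rich elements, went against the family: it read 130, 124 and 102 CPM in ΔN-VEGF normoxia and 198, 170 and 171 CPM in hypoxia, a rise of 0.6 ± 0.17 (adjusted p = 0.013) that stood at 0.2 with library totals alone (adjusted p = 0.23). That rise was lost in 2 of the 12 fits without 1 sample. Wild-type samples read 96.3, 153 and 105 CPM in normoxia and 123, 153 and 135 CPM in hypoxia, which overlapped (0.21 ± 0.17, adjusted p = 0.36), and without normoxia replicate 2 Hnrnpa0 rose (0.44, adjusted p = 0.0073). The other 12 Hnrnp genes were not called in ΔN-VEGF cells, among them Hnrnpa1, the most abundant member per length at 288 ± 9 RPKM in ΔN-VEGF normoxia and 330 ± 13.8 RPKM in hypoxia (adjusted p = 0.35). Hnrnpa1 stood at -0.21 with library totals alone (adjusted p = 0.19).

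**Figure D3:**
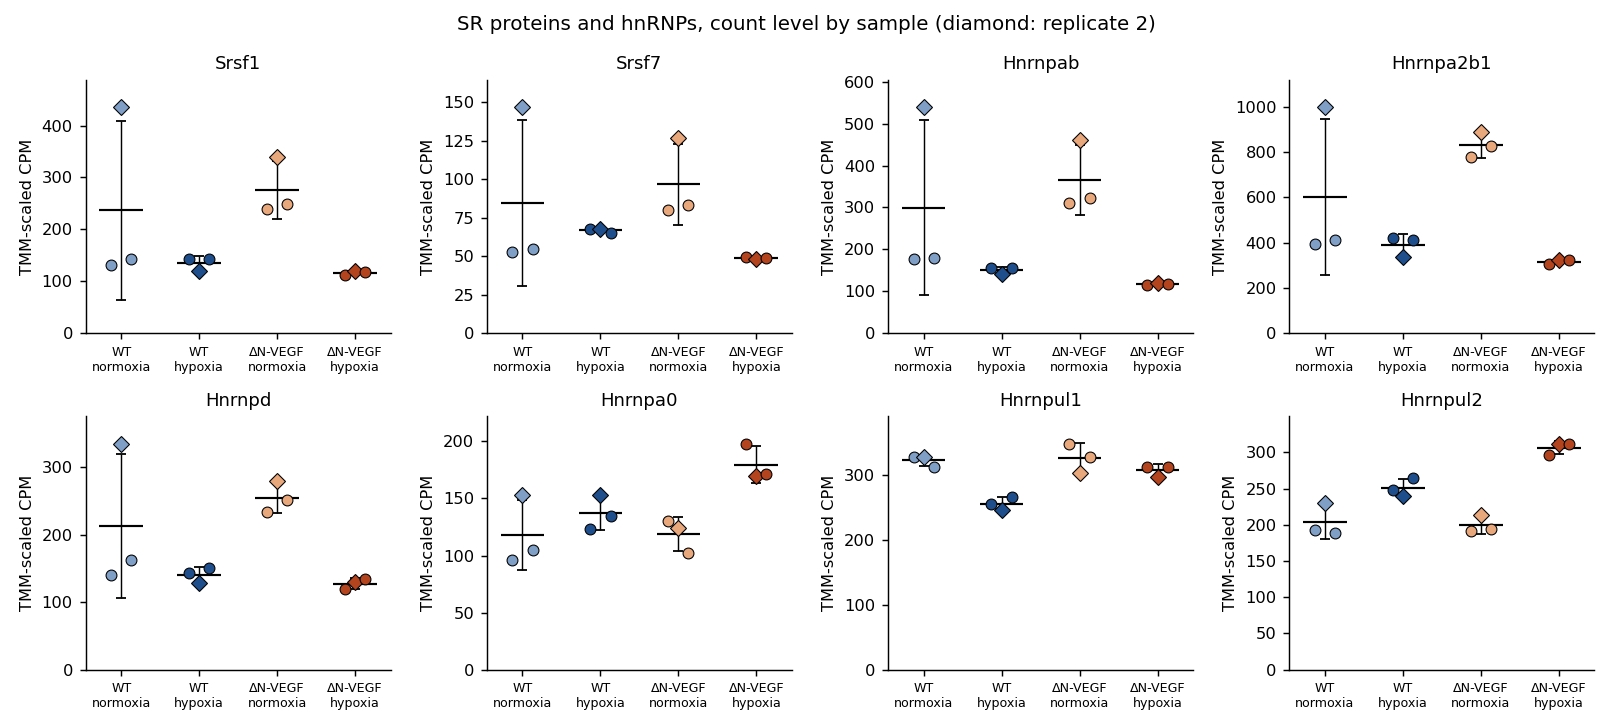
TMM-scaled CPM of 8 SR and Hnrnp genes in each of the 12 samples (points, with replicate 2 as a diamond), with group means (horizontal bars) and SD (error bars). Srsf1, Srsf7, Hnrnpab, Hnrnpa2b1 and Hnrnpd fell in ΔN-VEGF hypoxia from a normoxic level that lay above wild-type replicates 1 and 3 and below wild-type replicate 2.

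The windows of Srsf1 (chr11:88047123-88047422, plus strand) and Hnrnpab (chr11:51606832-51607131, minus strand) are shown as those of the largest falls in each family.
Srsf1: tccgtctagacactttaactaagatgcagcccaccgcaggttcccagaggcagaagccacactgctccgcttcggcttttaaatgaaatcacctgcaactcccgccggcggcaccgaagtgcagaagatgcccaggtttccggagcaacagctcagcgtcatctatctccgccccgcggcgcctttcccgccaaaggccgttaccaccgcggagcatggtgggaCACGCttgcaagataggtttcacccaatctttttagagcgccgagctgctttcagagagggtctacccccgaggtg
Hnrnpab: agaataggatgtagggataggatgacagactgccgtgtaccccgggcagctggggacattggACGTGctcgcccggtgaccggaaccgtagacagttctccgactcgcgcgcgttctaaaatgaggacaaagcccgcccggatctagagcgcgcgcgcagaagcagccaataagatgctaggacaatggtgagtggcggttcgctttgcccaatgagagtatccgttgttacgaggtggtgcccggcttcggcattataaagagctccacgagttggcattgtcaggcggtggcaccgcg
Srsf1 held 1 match to GCGTG, as its reverse complement, and Hnrnpab 1 match to ACGTG, so that matches stood in front of genes that fell as well as of genes that rose.

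**Figure D4:**
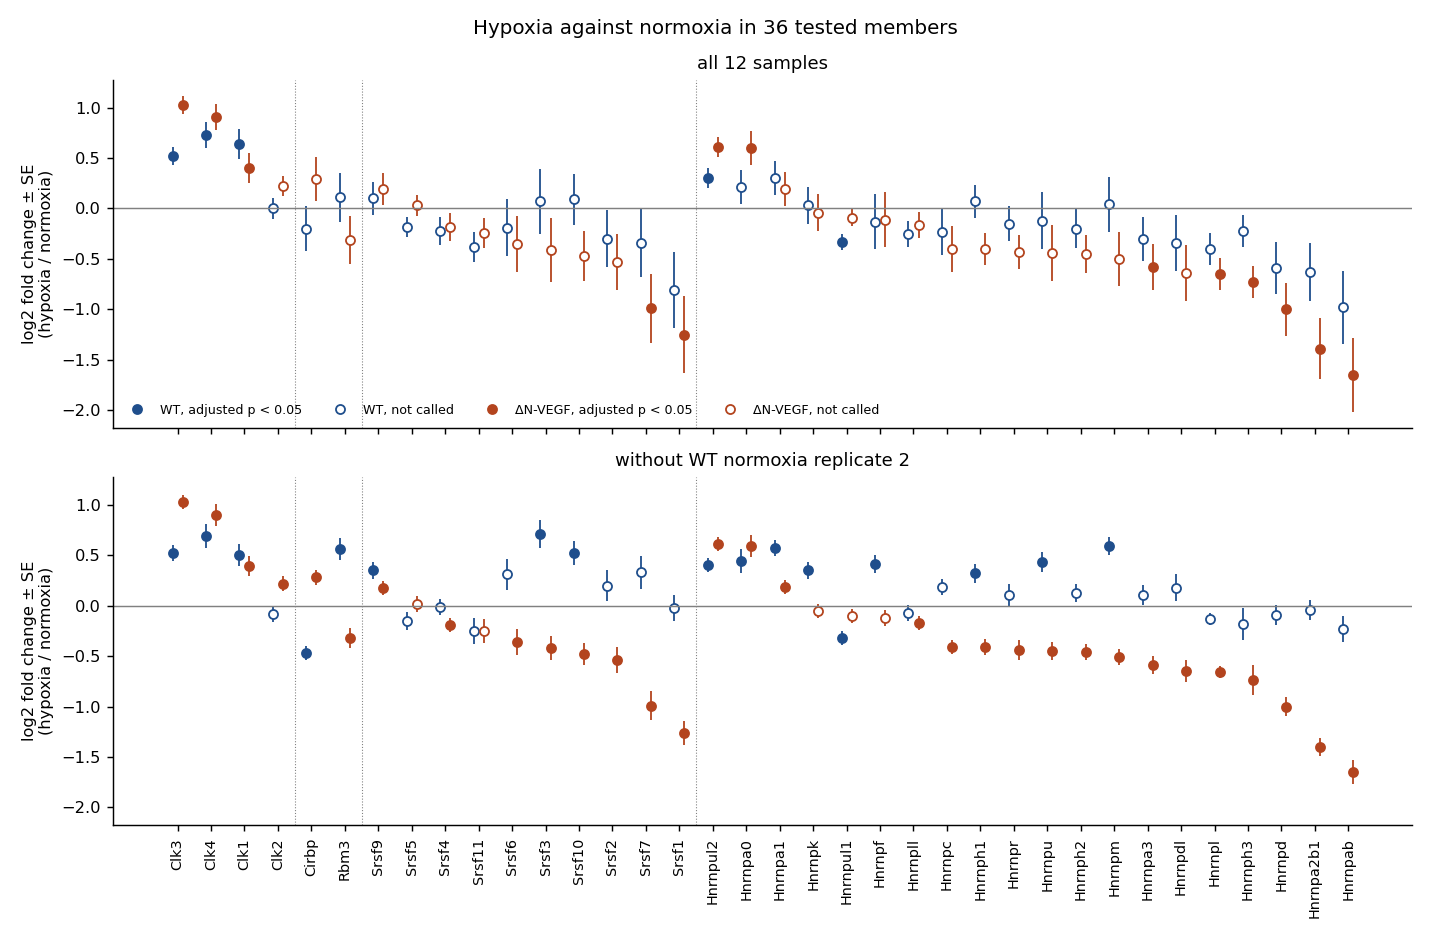
Log2 fold change in hypoxia against normoxia (± SE) of the 36 tested members in wild-type (blue) and ΔN-VEGF cells (orange), with all 12 samples (top) and without wild-type normoxia replicate 2 (bottom), where filled points have an adjusted p below 0.05. In the lower plot 15 wild-type members rose and 2 fell, where 27.1% of all tested genes rose and 26.9% fell. In ΔN-VEGF cells 9 members rose and 22 fell, where 32.8% of all tested genes rose and 34.3% fell.

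Between the lines in normoxia, 0 members were higher and 1 was lower in ΔN-VEGF cells with edgeR, and the groups did not overlap for 2 of 36 members (Clk3 and Clk4), where 16.3% of all tested genes did not overlap. DESeq2 also called 1. Leaving out wild-type normoxia replicate 2 gave 27 calls, 24 higher and 3 lower in ΔN-VEGF cells, where 25.7% of all genes were called higher and 23.2% lower. The 24 comprised 15 Hnrnp genes, 8 SR genes and Rbm3, with Hnrnpa2b1 at 1.06, Hnrnpab at 1.05 and Srsf1 at 1.02 on the log2 scale, and the 3 were Clk1, Clk3 and Cirbp. Summed CPM of the proliferation genes in the samples that remained was 2030 to 2740 in ΔN-VEGF and 880 and 888 in wild-type normoxia, and its part in this difference was not tested.

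Between the lines in hypoxia, 1 member was higher (Hnrnpul1) and 1 lower (Clk1) in ΔN-VEGF cells, where 10.8% of all tested genes were higher and 9.36% lower. When only the 6 hypoxic samples were fitted, 7 were higher and 13 lower, where calls over all genes went from 2961 to 7896. With library totals alone 0 were higher and 4 lower (edgeR; DESeq2, with its own scaling, called 3 higher and 2 lower), where 4.57% of all tested genes were higher and 22.2% lower. The lines did not overlap for 20 of 36 members, against 59.8% of all tested genes. With wild-type normoxia replicate 2 left out, 14 members were called, 5 higher and 9 lower, where all tested genes gave 21.2% in each direction. The highest values were Cirbp at 0.4 (adjusted p = 0.00038) and Hnrnpa0 at 0.39 (adjusted p = 0.0099), and the lowest Clk1 at -0.5 (adjusted p = 0.0013) and Hnrnph3 at -0.48 (adjusted p = 0.021). In hypoxia the summed levels of the families were close: 913 to 1013 CPM in wild-type and 914 to 956 CPM in ΔN-VEGF cells for the SR genes, and 4681 to 5362 and 4936 to 5170 CPM for the Hnrnp genes.

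The interaction without that library was called for 25 of 36 members, 3 positive and 22 negative, where 21.4% of all genes were positive and 23% negative. The positive values were Cirbp at 0.76, Clk3 at 0.51 and Clk2 at 0.3, and the most negative were Hnrnpab at -1.42, Hnrnpa2b1 at -1.37, Srsf7 at -1.32 and Srsf1 at -1.23. With all 12 samples the same 4 negative values were -0.66, -0.77, -0.64 and -0.43, with adjusted p-values of 0.32 to 0.68.

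Ratios of counts within a library do not depend on scaling between libraries. Summed CLK counts per summed SR count were 0.159, 0.0677 and 0.149 in wild-type normoxia and 0.179, 0.191 and 0.178 in wild-type hypoxia. They were 0.109, 0.0732 and 0.1 in ΔN-VEGF normoxia and 0.2, 0.192 and 0.186 in ΔN-VEGF hypoxia. Every hypoxic sample of either line thus held more CLK per SR count than any normoxic sample of either line. SR counts per Hnrnp count varied less, between 0.182 and 0.223 over the 12 samples. Clk3 counts per Clk1 count were 1.77 to 2.38 in ΔN-VEGF hypoxia and 1.15 to 1.74 in the other 9 samples. These ratios are given as a description and were not tested.

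**Figure D5:**
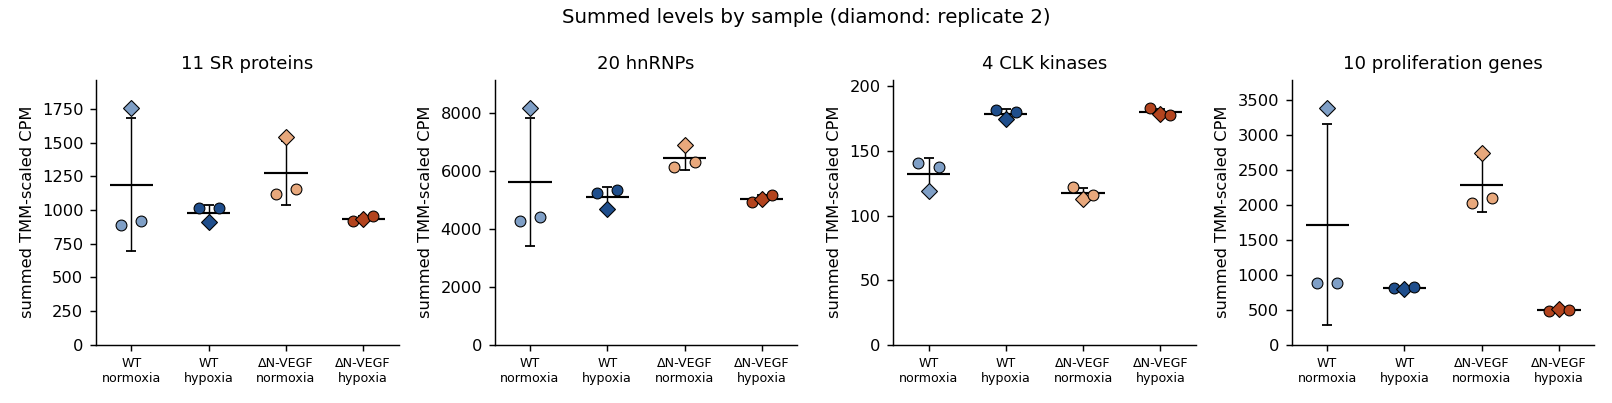
Summed TMM-scaled CPM of the SR genes, the Hnrnp genes, the CLK kinases and 10 proliferation genes in each of the 12 samples (points, with replicate 2 as a diamond), with group means (horizontal bars) and SD (error bars). The CLK sum was 113 to 141 CPM in normoxia and 175 to 183 CPM in hypoxia, while the SR, Hnrnp and proliferation sums were highest in wild-type normoxia replicate 2.

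Other parts of the splicing machinery were read from lists that are not independent of earlier results on these data. Of 46 core spliceosome genes, 1 rose and 6 fell in wild-type hypoxia and 1 rose and 24 fell in ΔN-VEGF hypoxia, with medians of -0.31 and -0.54 against -0.07 and -0.01 over all tested genes. These are 2.17% higher and 13% lower in wild-type cells, where 18.2% and 18.3% of all tested genes were called, and 2.17% and 52.2% in ΔN-VEGF cells, where 26.9% and 26.4% were. Sf3b1, a core protein of the U2 particle, rose in both lines, by 0.6 ± 0.11 (adjusted p = 0.0016) and 0.67 ± 0.11 (adjusted p = 0.00046). The largest falls were Prpf4 in wild-type cells (-0.91, adjusted p = 0.024) and Snrpa1 in ΔN-VEGF cells (-1.65, adjusted p = 0.0076). Dropping wild-type normoxia replicate 2 gave 9 rises and 5 falls in wild-type cells and 3 rises and 35 falls in ΔN-VEGF cells. The falls in ΔN-VEGF cells were then 76.1% of the list, against 34.3% of all tested genes.

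Of 26 SR-related proteins and SR kinases, hypoxia raised 3 and lowered 6 in wild-type cells and raised 7 and lowered 5 in ΔN-VEGF cells (medians -0.07 and -0.06). The share that rose in ΔN-VEGF cells, 26.9%, was that of all tested genes, and both medians lay near those of all genes. Falls there were 19.2%, against 26.4% of all tested genes. In wild-type cells 11.5% of this list rose and 23.1% fell, against 18.2% and 18.3% of all tested genes. The largest rise was Rsrp1, a little-studied protein rich in arginine and serine, at 1.06 ± 0.19 (adjusted p = 0.0014) and 1.4 ± 0.19 (adjusted p = 0.00012). The largest falls were Rsrc1 in wild-type cells (-0.85, adjusted p = 3.2e-05) and Pnn in ΔN-VEGF cells (-1.03, adjusted p = 0.024). Of 36 other splicing regulators, 1 rose and 5 fell in the wild type against 5 and 14 in ΔN-VEGF cells (medians -0.19 and -0.31). Falls were 13.9% of that list in wild-type and 38.9% in ΔN-VEGF hypoxia, against 18.3% and 26.4% of all tested genes. Rises were 2.78% and 13.9%, against 18.2% and 26.9%. Mbnl2, a regulator known from myotonic dystrophy, rose in both lines, at 0.91 ± 0.18 (adjusted p = 0.0023) and 1.87 ± 0.18 (adjusted p = 9.4e-06), and the largest falls were Tia1 (-0.73, adjusted p = 0.0042) in the wild type and Sfpq (-1.25, adjusted p = 0.0065) in ΔN-VEGF cells. Dropping wild-type normoxia replicate 2 gave 10 rises and 5 falls, then 8 and 11, for the SR-related list, and 9 and 5, then 9 and 21, for the other regulators. All tested genes then gave 27.1% rises and 26.9% falls in wild-type and 32.8% and 34.3% in ΔN-VEGF hypoxia.

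Of 15 genes of nonsense-mediated decay and the exon junction complex, 1 rose and 4 fell in the wild type against 2 and 6 in ΔN-VEGF cells (medians -0.15 and -0.37). Falls were thus 26.7% and 40% of the list, against 18.3% and 26.4% of all tested genes. Magohb, an exon junction subunit, fell furthest in both lines (-1.55, adjusted p = 0.0042, and -2.12, adjusted p = 4e-04). The largest rises were Upf2 at 0.29 (adjusted p = 0.049) and Smg6 at 0.58 (adjusted p = 0.0014). Among 6 tested genes with a cold-shock domain, Carhsp1 rose in both lines (0.56, adjusted p = 0.00039, and 0.75, adjusted p = 2.9e-05), and none fell in wild-type cells. In ΔN-VEGF cells Lin28b (-3.25, adjusted p = 2e-05) and 1 other gene fell. Lin28b had very low levels, at 0.971 to 1.35 CPM in ΔN-VEGF normoxia and 0.092 to 0.188 CPM in ΔN-VEGF hypoxia. Among 12 heat-shock genes, 1 rose and 5 fell in the wild type against 1 and 7 in ΔN-VEGF cells (medians -0.52 and -0.85). Falls were 41.7% and 58.3% of that list, and of the cold-shock domain list 0% and 33.3%, against the same background. Among the heat-shock genes Dnajb1 was the riser (1, adjusted p = 0.0022, and 1.06, adjusted p = 0.00091) and Hsph1 fell furthest (-1.83, adjusted p = 4e-05, and -2.45, adjusted p = 2.8e-06). Dropping wild-type normoxia replicate 2 gave 4 rises and 4 falls, then 4 and 8, for the decay list, 3 and 1, then 1 and 2, for the cold-shock domain list and 2 and 4, then 1 and 9, for the heat-shock list. Of all tested genes 27.1% were then called higher and 26.9% lower in the wild type, and 32.8% and 34.3% in the ΔN-VEGF line.

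In their gene models (GENCODE M21, GRCm38) the members shared features that the rule did not use. A transcript annotated for nonsense-mediated decay was listed for 25 of 37 members (67.6%) and for 20.8% of all protein-coding genes in the table. It was listed for 4 of 4 CLK kinases, both cold-inducible genes, 9 of 11 SR genes and 10 of 20 Hnrnp genes. A retained-intron transcript was listed for 28 of 37 members (75.7%) and for 41.5% of all protein-coding genes. The number of annotated transcripts per gene was not compared between members and other genes, and which isoforms made up the counts was not measured. Of members not yet described as overlapping other genes, Srsf4 shares 43% of its exon length with Gm12992, which had 0.827% as many counts, Srsf2 15.6% with Mettl23 (7.6%) and 9.74% with Mfsd11 (33.1%), Hnrnpm 14.7% with March2 (9.52%) and Hnrnpf 13.5% with 4933440N22Rik (0.924%).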

How the data were processed

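RNA-seq of 12 samples was used: wild-type and ΔN-VEGF NIH3T3 cells in normoxia and hypoxia, 3 of each. The authors sequenced 80-bp single reads from TruSeq libraries, trimmed them with cutadapt 1.10, aligned them with TopHat2 2.1.0 to GRCm38 and counted them per Ensembl gene with HTSeq 0.6.1 (tools from the submitters' processing notes). The deposited values are raw counts, whole numbers with no scaling. The strand setting of the counting is not given in the sources used here.

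Counts on genes were 30519052 to 43056690 per sample. They were tested with edgeR 4.0.16 in R 4.3.3: filterByExpr, TMM scaling, a separate mean for each group fitted to the 12 samples together, quasi-likelihood F tests, and p-values adjusted by Benjamini-Hochberg across the 14724 genes that passed the filter. Calls had an adjusted p below 0.05. Comparisons numbered 5: normoxia to hypoxia in each line, ΔN-VEGF against wild type in each condition, and the interaction. Alternatives were DESeq2 1.42.0, other scalings and filters, a fold threshold, a replicate block, the 6 samples of a comparison alone and leaving out each sample. The code was tested on simulated counts. CPM are counts per TMM-scaled library total, and RPKM divide them by the union of a gene's exons in GENCODE M21.

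The members and the gene lists were chosen with earlier results of these data known. Values in every sample are given for the CLK kinases, Cirbp, Rbm3, members called in the interaction or between lines in normoxia, and the 3 largest called rises and falls of the Srsf and Hnrnp families in the other comparisons. Of the other lists, the largest called rise and fall are named. Genes that overlap members were named after their values were seen.

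Samples with the same number, each taken as its deviation from the mean of its group, correlated at 0.36 to 0.5 between the lines in normoxia. Replicates 1 and 3 of different number correlated at 0.35 and 0.36 as well. Replicate 2 stood apart in both groups, so these values cannot show pairing of replicates 1 and 3. The main tests used no replicate block. In the other comparisons the same-numbered correlations were -0.02 to 0.11, and the numbers were not read as pairing.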

Additional observations from a re-analysis of the deposited data

Results flagged for a closer look

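The response of Clk3 to hypoxia differed between the lines by an interaction test: the log2 difference was 0.51 ± 0.12 (SE), with the larger rise in ΔN-VEGF cells (edgeR, quasi-likelihood F test, adjusted p = 0.045). All 3 hypoxic samples lay above all 3 normoxic samples in both lines. The call was lost in 10 of the 12 fits without 1 sample, with library totals alone (0.34, adjusted p = 0.14) and without a filter on low counts (0.43, adjusted p = 0.3).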

How the results depend on the processing

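Over the 12 fits that each left out 1 sample, called members ranged from 4 to 17 for hypoxia in wild-type cells, from 8 to 31 for hypoxia in ΔN-VEGF cells, from 0 to 27 between lines in normoxia, from 0 to 14 between lines in hypoxia and from 0 to 25 for the interaction, each highest value without wild-type normoxia replicate 2. Calls over all genes ranged with them, from 4054 to 8175, 6527 to 10161, 167 to 7410, 1525 to 6425 and 75 to 6729. Without both normoxia samples numbered 2, a setting added after seeing the data, the counts were 25 and 32 for hypoxia, 28 between lines in normoxia and 28 for the interaction, with 8 higher and 13 lower between lines in hypoxia. Calls over all genes then moved from 5372 to 9849 and from 7853 to 10771 for hypoxia, from 642 to 8089 between lines in normoxia from 2961 to 8411 between lines in hypoxia and from 495 to 7963 for the interaction. In wild-type hypoxia this setting turned Hnrnpc (0.19), Hnrnpdl (0.18), Srsf2 (0.19), Srsf6 (0.31) and Srsf7 (0.33) to called rises. Hnrnpf (0.41) and Hnrnpu (0.43) turned with either setting, and the interaction of Hnrnpf became -0.53 without the wild-type library and -0.44 without both. Over the fits without 1 sample, wild-type hypoxia ranged from -0.36 to 0.41 for Hnrnpf and from -0.35 to 0.43 for Hnrnpu, and the Hnrnpf interaction from -0.53 to 0.25.

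With library totals alone the counts were 13 (2 higher, 11 lower) and 29 (3 higher, 26 lower) for hypoxia and 4 (all lower) between lines in hypoxia, and the interaction called Hnrnph1 (-0.67) in place of Clk3. Medians of all genes then moved from -0.07 to -0.3 in wild-type and from -0.01 to -0.41 in ΔN-VEGF hypoxia, and in ΔN-VEGF cells Clk1 (-0.01), Srsf5 (-0.37), Clk2 (-0.18), Cirbp (-0.11), Hnrnpa1 (-0.21) and Srsf9 (-0.21) changed sign. A fold change of at least 2 left 0 called members in wild-type and 4 in ΔN-VEGF hypoxia and 0 in the other comparisons, with 2312, 4008, 319, 1002 and 230 calls over all genes. With the 6 samples of a comparison alone the counts were 28 (7 higher, 21 lower) for hypoxia in ΔN-VEGF cells, 0 between lines in normoxia and 20 (7 higher, 13 lower) in hypoxia, with 9268, 15 and 7896 over all genes. Without a filter on low counts, 0 members were called between lines in normoxia, in hypoxia and in the interaction, with 554, 2387 and 447 over all genes. DESeq2 called 6 in wild-type hypoxia (4 higher, 2 lower) and 5 between lines in hypoxia, with 5854 and 3631 over all genes. The cause of these shifts was not tested.

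With the replicate number as a block, 5, 13, 1, 3 and 1 members were called in the 5 comparisons, with 5679, 8171, 643, 3237 and 484 calls over all genes. In ΔN-VEGF hypoxia the block lost Hnrnpa3 (adjusted p = 0.062) and gained Hnrnpr (adjusted p = 0.041), and between lines in hypoxia it gained Hnrnph3 (adjusted p = 0.049). It changed no other call on members.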
